A study of Mus musculus with 2 samples.

Results

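The genes that write, copy and remove DNA methylation in mouse embryonic stem (ES) cells were examined for binding of the chromatin protein TOBF1, the product of A830080D01Rik (RefSeq symbol Bclaf3). The 7 genes were the Tet oxidases Tet1 and Tet2, the DNA methyltransferases Dnmt1, Dnmt3a and Dnmt3b, the methyltransferase cofactor Dnmt3l, and Uhrf1. They are part of 21887 protein-coding genes that RefSeq labels with a chromosome. A TOBF1 peak was assigned to a gene when its midpoint lay in the RefSeq span of the gene or within 50 kb of it, on the mm10 build. By this rule 16 of the 12181 peaks in the deposited list belonged to the 7 genes. The peaks came from 1 ChIP-Seq library of R1/E ES cells, kept in medium with FBS and LIF, that carried TOBF1 tagged in a BAC (a bacterial artificial chromosome holding a large piece of genomic DNA). Chromatin was crosslinked with formaldehyde and DSG and precipitated with an anti GFP antibody. The series has 1 further library, an input from cells with the same construct and no antibody, which was not analysed here. Since each group is a single library there is no replicate error, no test between conditions was made, and every value below describes this library. Neither a precipitation from untagged cells nor expression values were used, so the part that signal unrelated to TOBF1 has in these peaks was not tested. The cell type given by the labels could not be checked against marker genes in a peak list.

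In mammals a methyl group on the cytosine of a CpG dinucleotide is set by Dnmt3a and Dnmt3b, the de novo methyltransferases, with the help of Dnmt3l, which has no catalytic activity of its own. After replication Uhrf1 recognises the hemimethylated DNA and brings in Dnmt1, which copies the mark to the new strand. Tet1 and Tet2 oxidise methylcytosine to hydroxymethylcytosine and further products, which leads to its removal, and both are highly expressed in ES cells.

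No peak overlapped the stretch from 250 bases before to 50 after any start that RefSeq lists for these genes, and the promoters nearest to a peak were internal ones, at Dnmt3a and Dnmt3l. Both sequences are shown because a peak lay about 1.5 kb before each of these starts, together with that of Tet2, the gene with the highest score. They are the 250 bases before the start, 5′ to 3′ on the strand of the gene (RefSeq, GRCm38.p6, whose chromosome positions are those of mm10). In these windows the capitals mark matches, on either strand, to the GC box GGGCGG, the CCAAT box, the TATA box TATAAA, the E-box CACGTG, the Sox motif ACAAAG, the Esrrb motif AAGGTCA or ATGCAAA, a part of the octamer bound by Oct4, and no match overlaps another in these 3 windows. The internal start is the third listed one at Dnmt3a and the second at Dnmt3l. The windows lie at chr12:3891494-3891743 (Dnmt3a, plus strand), chr10:78049592-78049841 (Dnmt3l, plus strand) and chr3:133544391-133544640 (Tet2, minus strand).
Dnmt3a, internal start: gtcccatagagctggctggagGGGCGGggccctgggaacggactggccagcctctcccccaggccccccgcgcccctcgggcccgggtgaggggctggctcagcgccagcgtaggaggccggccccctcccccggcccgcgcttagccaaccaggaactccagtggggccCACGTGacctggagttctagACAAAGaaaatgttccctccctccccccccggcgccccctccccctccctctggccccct
Dnmt3l, internal start: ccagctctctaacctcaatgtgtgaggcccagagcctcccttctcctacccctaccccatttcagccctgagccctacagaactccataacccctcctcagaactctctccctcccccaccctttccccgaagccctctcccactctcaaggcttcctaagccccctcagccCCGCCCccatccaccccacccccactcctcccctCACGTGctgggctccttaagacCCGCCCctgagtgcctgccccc
Tet2, listed start: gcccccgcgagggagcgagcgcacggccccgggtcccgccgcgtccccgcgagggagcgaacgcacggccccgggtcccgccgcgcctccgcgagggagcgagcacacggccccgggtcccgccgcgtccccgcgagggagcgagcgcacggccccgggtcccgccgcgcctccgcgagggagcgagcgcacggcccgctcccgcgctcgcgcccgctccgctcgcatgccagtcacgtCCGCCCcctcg

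The internal Dnmt3a and Dnmt3l windows each held 1 E-box, a motif present in 6.02% of the 32851 windows of this length in the RefSeq table, and none of the other 12 windows of the 7 genes held one. The Dnmt3a window had 1 GC box and 1 Sox motif besides, and the Dnmt3l window 2 GC boxes. GC boxes occurred in 32.7% and Sox motifs in 16.5% of all windows. The windows differed in CpG content. The internal Dnmt3a window had 15 CpG dinucleotides, against 38 and 40 at the first and second listed starts of the gene, whose windows overlap each other. At Dnmt3l the second listed start had 4, between the 5 of the first and the 3 of the third. The Tet2 window had 51, more than 99.9% of all windows, whose median was 6. In it the 12 bases CCGCGAGGGAGC recurred 5 times at steps of 42 bases, a tandem repeat that can be read in the printed sequence. No window of the 7 genes held a TATA box, an Esrrb motif or the octamer part, which occurred in 12.4%, 4.08% and 4.12% of all windows. A CCAAT box was present at Dnmt1 and Uhrf1 and in 33.8% of all windows. These matches describe the letters only. The 32851 windows belong to 27025 genes and were not limited to protein-coding ones. The median and shares over all windows are therefore not those of protein-coding genes alone.

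Peaks lay at 6 of the 7 genes, and they were unevenly spread. Tet1 had 6 peaks and Tet2 had 5, so that the 2 Tet genes held 11 of the 16. Dnmt1 had 2, Dnmt3a, Dnmt3b and Dnmt3l had 1 each, and Uhrf1 had 0. Of all protein-coding genes, 42.0% had a peak by the same rule, and the median over these genes was 0 peaks. Within 10 kb of the span a peak was found at 5 of the 7 genes (all but Dnmt1 and Uhrf1), against 21.6% of all protein-coding genes. A peak inside the span occurred at 4 of 7 (Tet1, Tet2, Dnmt3a and Dnmt3l), against 13.5%. None of the 7 had a peak within 1 kb of either end of its span, where 2.67% of all protein-coding genes had one. The 7 genes were chosen with earlier results of this list known, and no test was made of these shares.

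**Figure D1:**
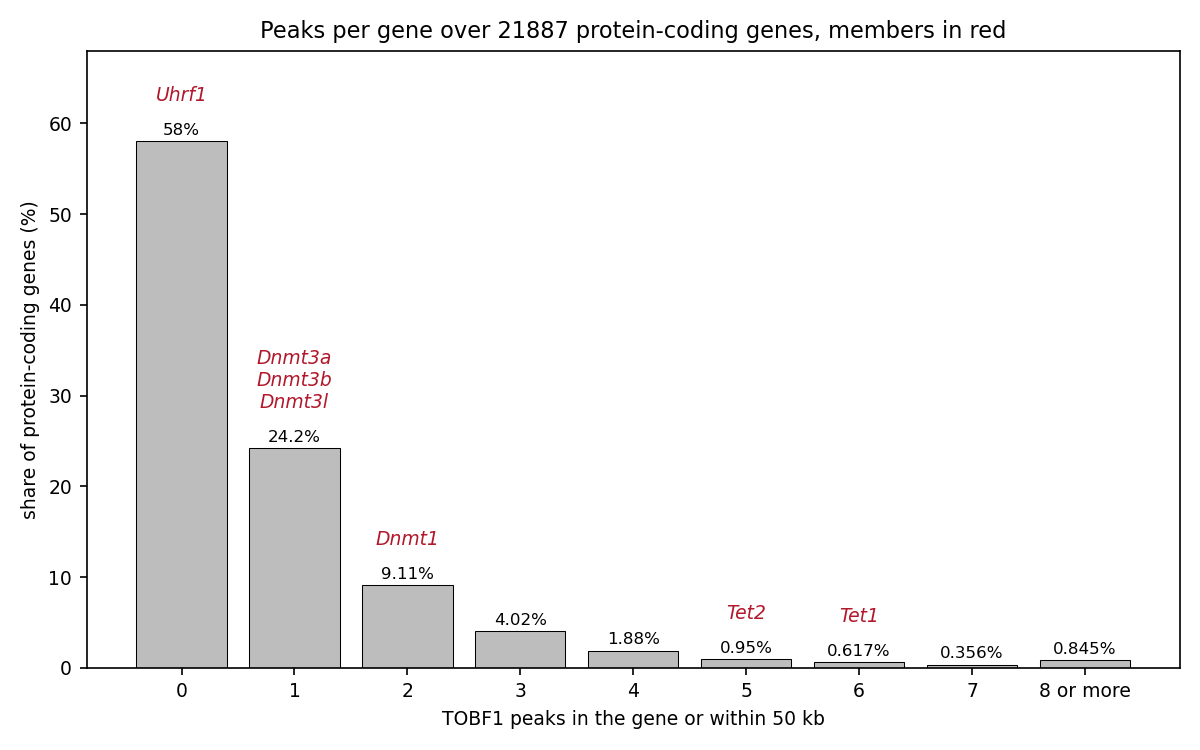
Bars give the share of the 21887 protein-coding genes (y axis, percent) with each number of TOBF1 peaks in the gene or within 50 kb (x axis, the last bar 8 or more), in 1 library. The members are written in red above their bars: Tet1 and Tet2 stand at 6 and 5 peaks, which 0.617% and 0.950% of genes have, and Uhrf1 stands among the 58.0% with 0.

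Long genes offer more room for peaks, so each member was also set beside protein-coding genes of 0.5 to 2 times its own length. At least 6 peaks, the number at Tet1 (82.9 kb), were found at 1.47% of 4573 such genes. At least 5 peaks, the number at Tet2 (81.5 kb), were found at 2.65% of 4609. The other members were common by this measure. At least 2 peaks occurred at 20.5% of genes of about the length of Dnmt1 (52.7 kb), and at least 1 peak at 57.2% of those like Dnmt3a (112.9 kb), 44.6% of those like Dnmt3b (38.3 kb) and 41.0% of those like Dnmt3l (21.3 kb). For Uhrf1 (20.2 kb), 40.7% of genes of similar length had a peak, so a gene without one is the more usual case. Counted per length of gene and window, the density was 3.28 peaks per 100 kb at Tet1, 2.76 at Tet2, 1.31 at Dnmt1, 0.824 at Dnmt3l, 0.723 at Dnmt3b and 0.470 at Dnmt3a. Over the windows of all protein-coding genes it was 0.573. Only Dnmt3a and Uhrf1 of the 7 lay below that value.

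The authors' score of each peak was taken to be −log10 of a q-value and served only to rank peaks within this list, where it ran from 1.30 to 216.1 with a median of 9.97. Most peaks of the 7 genes were weak. Their scores ran from 2.15 to 56.5 with a median of 6.42, and 11 of the 16 lay below the median of the list. The 5 above it were 2 peaks at Tet2 and 1 each at Tet1, Dnmt3b and Dnmt3a. A peak at or above the median of the list was thus present at 4 of the 7 genes, against 26.9% of all protein-coding genes. Among protein-coding genes with any peak within 50 kb, the median of the highest score per gene was 13.6. The highest scores of the members were 56.5 (Tet2), 21.6 (Tet1), 19.2 (Dnmt3b), 13.1 (Dnmt3a), 7.68 (Dnmt1) and 6.55 (Dnmt3l), so they lay on both sides of that value. Peak widths ran from 135 to 429 bp with a median of 220.5 bp, and the median of the list was 216 bp. None of the 16 lay in a dense region, that is, a run of 6 or more peaks at gaps of up to 10 kb. The share of the whole list that lies in such runs was not worked out. Whether these peaks differ from the rest of the list in this was therefore not tested.

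**Figure D2:**
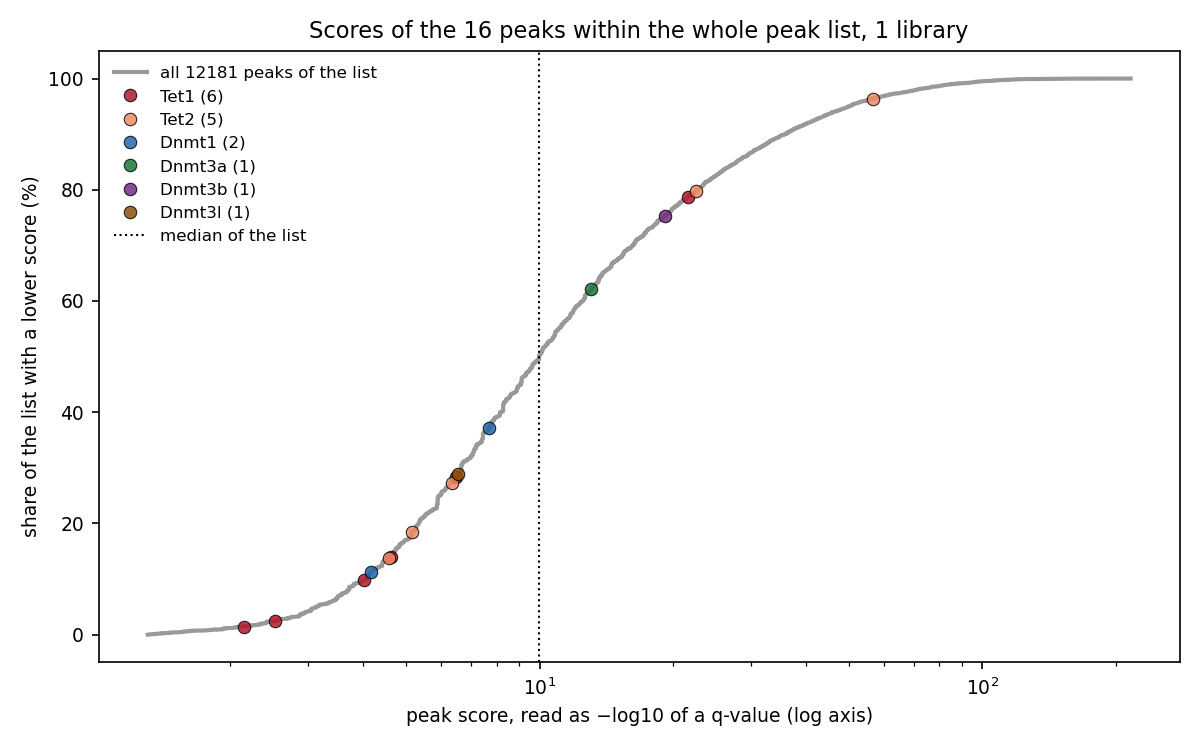
Each point is 1 of the 16 peaks, coloured by gene, at its score (x axis, log scale, read as −log10 of a q-value) and the share of the list with a lower score (y axis, percent); the grey curve is the whole list of 12181 peaks and the dotted line its median, 9.97. The 11 points left of the line include 5 of the 6 Tet1 peaks, and the point farthest right is the Tet2 peak with a score of 56.5.

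Tet2, on chromosome 3 (133463677 to 133545136, minus strand), had all of its 5 peaks inside the gene. The strongest (133524589 to 133525017, score 56.5) had rank 442 in the list and lay 19.6 kb downstream of the listed start. It was also the widest of the 16, at 429 bp. The next (133532675 to 133533062, score 22.6) lay 11.5 kb downstream of the start. Within 2 kb of it, on the side towards the start, lay weaker peaks with scores of 4.58 (133533482 to 133533698) and 6.35 (133534056 to 133534330). The fifth (133518792 to 133518959, score 5.15) lay farthest into the gene, 25.5 kb from the start. All 5 thus lay between 10.2 and 25.5 kb downstream of the listed start, in the part of the gene nearer to its 5′ end, and the remaining 55.2 kb of the span up to its 3′ end held none. The nearest other protein-coding gene, Ppa2, which encodes an inorganic pyrophosphatase, lay 140.6 kb or more from each of them. The surroundings were empty of other peaks as well, with the nearest at 1401 kb on one side and 1771 kb on the other.

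At Tet1, on chromosome 10 (62804570 to 62887469, minus strand), 3 peaks lay inside the gene and 3 outside. The strongest (62893027 to 62893205, score 21.6) lay 5.79 kb upstream of the listed start and ranked above 78.8% of the list. A weak peak (62895569 to 62895737, score 2.53) lay 8.33 kb upstream. Both lay within Gm51805, a long non-coding RNA gene whose span reaches into Tet1, and the stronger one ended 204 bp from Gm26479, which RefSeq lists as an snRNA gene. Of the 12012 peaks on chromosomes, 34 (0.283%) lay within 1 kb of an snRNA gene. Whether the signal belongs to Tet1, Gm51805 or Gm26479 was not tested.

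Inside Tet1 the peak nearest to the start (62884719 to 62884853, score 4.63) lay 2.54 kb downstream of it, in the part shared with Gm51805. The other two lay deeper in the gene, 30.3 kb (62856920 to 62857143, score 2.15) and 38.3 kb (62848977 to 62849142, score 6.49) from the start. The last peak (62800856 to 62800996, score 4.005) lay 3.64 kb beyond the 3′ end and 8.56 kb from Ccar1, a gene of a cell cycle and apoptosis regulator. Tet1 therefore had its peaks on both sides of the start and past the 3′ end, while those of Tet2 lay together within the gene. The highest Tet1 score was below the 2 highest of Tet2, and 5 of the 6 Tet1 peaks were weak, with 1.44 to 28.4% of the list scoring lower.

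**Figure D3:**
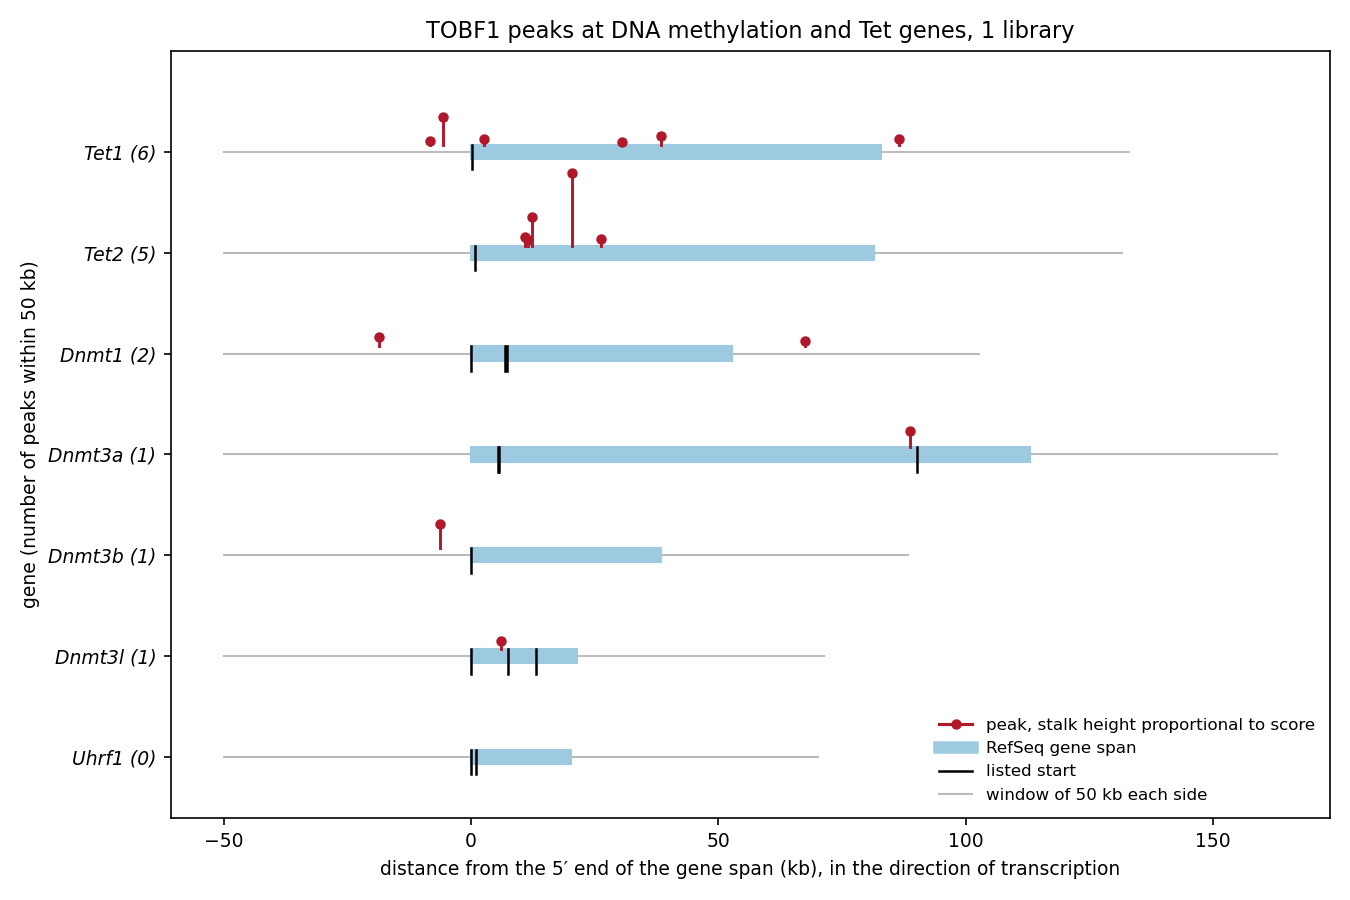
Each row is 1 gene drawn from its 5′ end at 0 in the direction of transcription (x axis, kb), with the RefSeq span in blue, listed starts as black ticks below, the window of 50 kb on each side in grey, and each TOBF1 peak as a red stalk whose height is proportional to its score (the tallest, at Tet2, is 56.5). Peaks of Tet2 lie inside the gene, those of Dnmt3a and Dnmt3l just before an internal start, that of Dnmt3b upstream, and both of Dnmt1 far outside.

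The de novo genes had 1 peak each, inside the gene and before an internal start at Dnmt3a and Dnmt3l, and upstream of the gene at Dnmt3b. At Dnmt3a, on chromosome 12 (3801559 to 3914443, plus strand), the peak (3890060 to 3890351, score 13.1) lay 88.6 kb into the gene and 1.54 kb before the third listed start. It overlapped the long non-coding RNA gene Gm31623 as well. An internal promoter of Dnmt3a is known to give the shorter isoform Dnmt3a2, the main one in ES cells, but the table used here does not pair starts with transcripts. The first and second listed starts were 68.1 and 68.2 kb from the nearest peak. That peak, outside the window, lay 62.6 kb upstream of the span (3738761 to 3739089, score 23.5), inside the neighbouring gene Dtnb, which encodes the dystrophin-associated protein dystrobrevin beta.

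At Dnmt3l, on chromosome 10 (78042287 to 78063622, plus strand), the peak (78048168 to 78048502, score 6.55) lay inside the gene, 6.05 kb after the first listed start and 1.51 kb before the second. It scored higher than 28.9% of the list, and above the 5 weaker peaks of Tet1, the highest of which had a score of 6.49. Dnmt3l is known to use different starts in germ cells and in ES cells. Its first start lies within the span of the neighbour Aire, whose product drives expression of tissue antigens in the thymus, and which was 4.73 kb from the peak. Dnmt3a and Dnmt3l were thus the 2 of 7 genes with a peak within 2 kb of a listed start, a distance chosen after the values were seen. Of the 17492 protein-coding genes with a listed start, 2.77% had such a peak. A peak near any listed start counted, so genes with several starts had more room for one. Dnmt3a, Dnmt3l and Dnmt1 have 3 listed starts each, Uhrf1 has 2, and Tet1, Tet2 and Dnmt3b have 1. Within 10 kb of a listed start a peak was found at 4 of 7 genes, with Tet1 and Dnmt3b added, against 10.3%.

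At Dnmt3b, on chromosome 2 (153649411 to 153687730, plus strand), the peak (153643073 to 153643321, score 19.2) lay 6.25 kb upstream of the listed start, in the interval between Dnmt3b and Commd7, which was 10.4 kb away. It scored higher than 75.3% of the list and was the strongest of the 5 peaks at the Dnmt genes. A stronger one (153594991 to 153595376, score 50.1) lay 54.2 kb upstream of the span, just outside the window, and was nearest to Commd7, a gene of the COMM domain family. It was the peak closest to the limit of 50 kb on the outside at any of the 7 genes. On the inside the outermost peak was 18.7 kb from its gene, Dnmt1, so the 16 peaks would be the same with any limit between 20 and 50 kb.

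The maintenance genes Dnmt1 and Uhrf1 had no peak in the gene or within 10 kb. Dnmt1, on chromosome 9 (20907206 to 20959888, minus strand), had 2, both weak, outside the gene and nearer to other genes. The peak 18.7 kb upstream (20978454 to 20978665, score 7.68) was 1.77 kb from S1pr2, which encodes a receptor for sphingosine-1-phosphate. The peak 14.8 kb past the 3′ end (20892292 to 20892546, score 4.16) was 0.240 kb from Ppan, a gene of ribosome biogenesis, with Eif3g between it and Dnmt1. The nearest protein-coding gene was the member for 14 of the 16 peaks, and these 2 were the exceptions. By nearest gene, 5 of the 7 members had a peak, against 23.3% of all protein-coding genes.

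Uhrf1, on chromosome 17 (56303337 to 56323486, plus strand), had no peak in its span or in either window. The nearest ones lay 351.2 kb below (55952045 to 55952273, score 18.4, nearest to Zfp119b) and 510.2 kb above. The number of reads behind the list is unknown, so a weaker signal at Uhrf1 or within Dnmt1 may not have been detectable.

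The other genes of the pathway were counted in 6 lists of 49 genes, of which 48 matched a protein-coding gene (Dnmt3c did not). A peak lay within 50 kb of 28 of the 48 (58.3%) and within 10 kb of 13 (27.1%), beside 42.0% and 21.6% of all protein-coding genes. The median number of peaks was 1, and the median of the highest score was 17.6 over the 28 genes. For 12 of the 48 genes a peak within 50 kb was nearest to the listed gene itself, a share near the 23.3% of all protein-coding genes. For the other 16 of the 28 every peak was nearer to a neighbour.

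Among the relatives of the members, Tet3, the remaining Tet oxidase, had 1 peak inside the gene with a score of 5.36, well under the top scores of Tet1 and Tet2. Uhrf2, a paralogue of Uhrf1, had 1 peak 1.23 kb outside the gene with a score of 13.1, where Uhrf1 had none. Trdmt1, a methyltransferase of transfer RNA, had 1 peak 27.5 kb away that was nearest to Vim (score 4.07). Genes listed as partners of maintenance methylation had a peak within 50 kb in 3 of 7 cases, all of them also within 10 kb. Of all protein-coding genes, 42.0% and 21.6% had one. Usp7, which encodes a deubiquitinase that binds Dnmt1 and Uhrf1, had 7 peaks within 50 kb, 3 of them inside the gene, and the highest (score 37.5) lay 21.7 kb outside. Hells, a chromatin remodeller needed for normal methylation, had 2, the stronger 1.30 kb outside the gene with a score of 23.4. The ligase gene Lig1 had 1 inside (score 12.1). No peak was found within 50 kb of Cdca7, Pcna, Paf1 or Uhrf1bp1. Paf1 and Uhrf1bp1 were counted as listed, and a part of theirs in maintenance methylation was not checked.

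Genes listed for the protection of imprints and CpG islands had a peak within 50 kb in 7 of 8 cases and within 10 kb in 5. The shares over all protein-coding genes were 42.0% and 21.6%. Dppa3, whose product protects the maternal genome from demethylation in the zygote, had a peak 1.73 kb outside the gene with a score of 31.7. Kdm2b, which binds unmethylated CpG islands, had 2 inside (highest score 14.6). Zfp57, a zinc finger protein that keeps imprints methylated, had 8 within 50 kb and 6 within 10 kb, with 32.7 as the highest score, though none of the 8 was nearest to Zfp57. Trim28, its corepressor, had 7 and 5, of which 1 was nearest to Trim28, and the highest (score 25.5) lay 28.7 kb away, nearest to Mzf1. Kdm1b had 1 at 3.95 kb that was nearer to Dek (score 5.72). Prdm14, a repressor of Dnmt3b in ES cells, had 4 between 10 and 50 kb away (highest score 12.5), and Zfp445 had 1 at 27.4 kb (score 18.0). Setdb1 had 0.

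Genes for the removal of oxidised or deaminated bases had a peak within 50 kb in 6 of 12 cases and within 10 kb in 3. Both counts were near the shares over all protein-coding genes, 42.0% and 21.6%. Parp1 had 1 inside the gene (score 25.01), and Gadd45a, a stress gene linked to demethylation, had 1 at 4.43 kb (score 20.7). Apobec1 had 1 at 5.58 kb (score 10.3) that was nearer to Gdf3, and it shared the Dppa3 peak at 21.7 kb. Xrcc1 and Apex1 had none within 10 kb, and their highest peaks lay 29.5 kb (score 58.2) and 11.5 kb (score 18.8) away. Tdg, the glycosylase that removes the products of Tet oxidation, had 0, as did Smug1, Ung, Neil1, Neil2 and Gadd45b.

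Neither the genes listed as readers of methylated CpG nor those listed as cofactors had any peak within 10 kb. The counts were 0 of 8 and 0 of 10, beside 21.6% of all protein-coding genes. These lists are short, and no test was made of their counts. Within 50 kb a peak lay at 3 of the 8 listed readers, beside 42.0% of all protein-coding genes. These were Mbd2 (score 68.6, 28.0 kb away), Mbd3 (11.3, 34.3 kb) and Mbd4 (9.11, 36.6 kb), and each of these highest peaks was nearer to another gene. Mbd1, Zbtb4, Zbtb33 and Zbtb38 were among the listed readers with 0. Mbd3 was counted as listed, and whether its product binds methylated CpG was not checked. Of the cofactors 6 of 10 had a peak within 50 kb, with the highest scores at Cxxc5 (27.4, 13.5 kb away), Ahcy (20.3, 41.1 kb), Idh1 (17.2, 26.9 kb) and Ogt (15.4, 36.3 kb), the enzyme that binds Tet proteins. Of these 4 highest peaks, that of Cxxc5 was nearest to the listed gene.

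**Figure D4:**
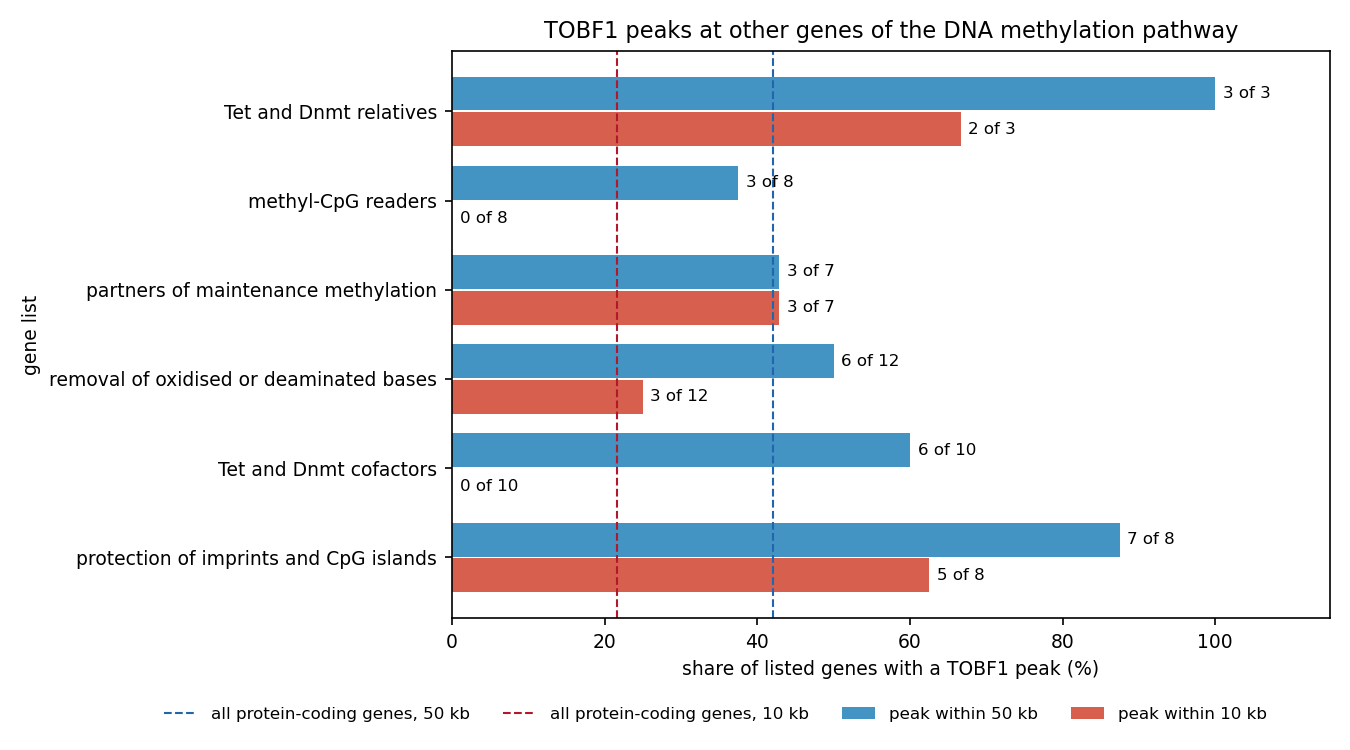
Bars give the share of genes in each list (x axis, percent) with a TOBF1 peak within 50 kb (blue) or 10 kb (red), labelled with the count, in 1 library; dashed lines give the shares over all protein-coding genes, 42.0% and 21.6%. Genes listed for the protection of imprints and CpG islands had a peak within 10 kb in 5 of 8 cases, and the listed readers and cofactors in 0 of 8 and 0 of 10. The lists are short and no test was made.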

How the data were processed

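TOBF1 ChIP-Seq was made in mouse R1/E ES cells, with 1 precipitated library and 1 input. Per the submitters' processing notes, cutadapt, Bowtie2, MACS2 and bedtools were used on the mm10 build, with settings, filters and the role of the input not given in the sources used here. Scores in the deposited list were taken to be −log10 of a q-value, since the lowest value, 1.3036, was just above 1.30103, which is −log10 of 0.05. The depth is unknown.

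The 12012 peaks on chromosomes 1 to 19, X and Y were used, with positions counted from 1; the 169 on scaffolds were left out. Spans came from the RefSeq table of GRCm38.p6, and strands and starts from RefSeq promoter windows, which list starts of 17492 of the 21887 protein-coding genes, all 7 members included. Genes were kept by their chromosome label alone. Some labelled chromosome 1, such as Csprs (111558 to 163011) and Ren2 (159748 to 169505), lie far before the next gene, Xkr4 (from 3199733), and had 0 peaks. Whether such positions refer to scaffolds was not checked, and these genes stay in the shares over all protein-coding genes. Exons and peak sequences were not analysed here. The members and lists were chosen with earlier results of these data known. All peaks of the members were named, list genes with a peak within 10 kb, and up to 4 others per list with the highest scores; genes with 0 peaks were named outside this rule, and some listed genes are counted but not reported here. Alternatives were other windows, any overlap, a score minimum, merging of peaks, assignment to the nearest gene and removal of dense regions. Counting was tested on simulated data. Python 3.11.15, NumPy 2.4.6, pandas 2.3.3 and matplotlib 3.10.9 were used.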

Additional observations from a re-analysis of the deposited data

How the results depend on the processing

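The 16 peaks at the 7 genes were the same number with windows of 20 kb, with any overlap and without dense regions. There were 10 inside the spans, 14 within 10 kb, 18 within 100 kb, 14 after merging at gaps of up to 1 kb and 14 by nearest gene. Restricted to peaks that reached the median score there were 5, and their median score was 21.6 in place of 6.42. Genes with a peak numbered 4 to 6 under all of these settings, with 4 inside the spans and 4 with this score minimum. Merging left Tet2 with 3 peaks. With the score minimum Tet2 had 2, Tet1 1, and Dnmt1 and Dnmt3l 0. Within 100 kb Dnmt3a and Dnmt3b had 2 each. A peak within 5 kb of a gene end was found at 1 member, Tet1, in place of 0 within 1 kb or 500 bp. Pathway genes with a peak fell from 28 to 13 within 10 kb and to 12 by nearest gene. A count that differed by more than 1.5 times was taken as moved. Within 1 library, neither replicate error nor depth could be assessed. No paired analysis was possible because each group has 1 library.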
